A study of Rattus norvegicus with 2 samples.

Results

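The cells described here carried transcripts of Dll1 or Dll3, which encode Delta-like ligands of the Notch receptors. A cell was counted as a ligand cell when it passed the filter (at least 5000 unique molecular identifiers, or UMIs, which count captured RNA molecules, and at most 10% of them from mitochondrial Mt- genes) and held at least 2 UMIs summed over Dll1 and Dll3. There were 472 such cells among 3548 cells past the filter and 4691 barcodes in all. They were set against cells of the same library with 0 UMIs of both genes, and then between the libraries. The rule used Dll1 and Dll3 alone, so the levels of these genes in ligand cells are a description of how the cells were chosen.

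The study profiled rat neural stem cells taken from the embryonic cortex of Sprague-Dawley rats at E14.5 and bought as primary cells. The treated culture received 30 µM ZD7288, a blocker of HCN channels (hyperpolarisation-activated channels that pass sodium and potassium), for 48 h, and the other culture received the vehicle, DMSO, for the same time. Both cultures held DMSO at 0.2% and the growth factor FGF2, which keeps such cells undifferentiated, and all medium was replaced once, at 24 h. ZD2788, the spelling in the treated sample's own label, is read here as the ZD7288 of the protocol. Each condition is 1 library made with the 10x Chromium 3′ kit, version 2, so no difference between conditions could be tested: the intervals below are 95% and cover counting error only.

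In neural progenitors, Delta ligands on a cell bind Notch receptors on its neighbours. The cut receptor tail then joins the DNA-binding protein RBPJ and switches on repressors of the HES family, which hold down proneural factors and, with them, the Delta genes. A cell high in Delta and proneural factors is therefore classically paired with a neighbour high in HES genes, a relation called lateral inhibition. Dll1 activates Notch on neighbouring cells, whereas mouse Dll3 is known to act inside the cell that makes it and not to activate Notch in neighbours. Hes6, unlike Hes1 and Hes5, is known to counteract Hes1 and to be expressed with proneural factors.

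The filter kept 2838 cells of the ZD7288 library and 710 of the vehicle library, with 73057893 and 15549058 UMIs in total. Neural stem cell genes were present in ligand cells, with Sox2 at 267 CPM (UMI counts scaled to a library total of 1000000) in ZD7288 and 234 CPM in vehicle and Nes at 127 and 128 CPM. Of the neurogenic factors expected in cortical progenitors, Neurog1 and Neurog2 had 0 UMIs in ligand cells of both libraries, and Eomes had 0 CPM in ZD7288 ligand cells and 0.220 CPM in vehicle ligand cells. Marker lists of microglia (11 genes) and endothelium (7 genes matched) summed to at most 1.53 CPM in ligand cells or in cells without ligand UMIs, and Ptprc, Cx3cr1 and Cldn5 were at 0 in all 4 of these classes. The pericyte and mesenchymal list (12 genes) summed to 14.6 and 20.2 CPM in ZD7288 ligand cells and cells without ligand UMIs, and to 13.6 and 5.57 CPM in vehicle, while Pdgfrb, which defines pericytes, was at 0 in ligand cells of both libraries. The part of these markers in the results was not tested. Only 3 barcode sequences occurred in both libraries, and 1 of them was a ligand cell.

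The stretches upstream of Dll1, Dll3 and Hes6 are printed because these genes were found together in the same cells below. They are the 250 bases before the annotated start of each gene in the RefSeq annotation of rat build GRCr8, all on the minus strand and written 5′ to 3′. They lie at chr1:64993275-64993524 for Dll1, chr1:92697317-92697566 for Dll3 and chr9:99451097-99451346 for Hes6. Capitals mark CAGCTG, a form of the E-box that proneural factors bind, and TGGGAA, the core of the RBPJ motif, on either strand (TTCCCA is TGGGAA on the other strand).
Dll1: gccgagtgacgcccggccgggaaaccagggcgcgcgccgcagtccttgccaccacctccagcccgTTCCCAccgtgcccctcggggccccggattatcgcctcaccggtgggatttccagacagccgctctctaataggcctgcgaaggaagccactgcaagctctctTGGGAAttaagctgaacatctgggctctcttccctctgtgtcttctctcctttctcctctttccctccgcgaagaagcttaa
Dll3: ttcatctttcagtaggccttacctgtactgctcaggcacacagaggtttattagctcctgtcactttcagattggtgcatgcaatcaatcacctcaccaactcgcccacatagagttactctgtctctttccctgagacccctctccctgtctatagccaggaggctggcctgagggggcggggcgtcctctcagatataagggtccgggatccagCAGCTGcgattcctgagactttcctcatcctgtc
Hes6: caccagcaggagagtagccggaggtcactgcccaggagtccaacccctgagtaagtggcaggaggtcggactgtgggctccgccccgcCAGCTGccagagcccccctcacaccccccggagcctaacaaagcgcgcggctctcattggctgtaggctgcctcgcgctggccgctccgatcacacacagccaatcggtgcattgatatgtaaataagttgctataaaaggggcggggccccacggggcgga

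CAGCTG stood 34 bases before the start of Dll3 and 162 bases before that of Hes6, and had 0 matches in the Dll1 window. The Dll1 window held TGGGAA at 185 and 82 bases before the start, and the Dll3 and Hes6 windows had 0 matches. Of 33465 rat windows of this length, 11.97% held CAGCTG and 22.1% held TGGGAA. The general E-box CANNTG, of which CAGCTG is a form, was found in all 3 windows and in 65.5% of rat windows, and the HES-type site CACNAG in the Hes6 window and in 37.2%. These matches describe letters in these windows and not binding.

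Ligand cells took a smaller share of the ZD7288 library. They were 327 of 2838 cells (11.5%, exact binomial interval 10.4% to 12.8%) after ZD7288 and 145 of 710 cells (20.4%, 17.5% to 23.6%) in vehicle, a ratio of 0.564 (approximate interval 0.472 to 0.674). With each cell thinned to 5000 UMIs, the share of cells with at least 1 ligand UMI was 8.84% (7.82% to 9.95%) after ZD7288 and 15.5% (12.9% to 18.4%) in vehicle, a ratio of 0.571 (0.463 to 0.703). No cell type that should lack Dll1 and Dll3 was identified in these cultures, so the part of free RNA in these UMIs was not tested.

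**Figure D1:**
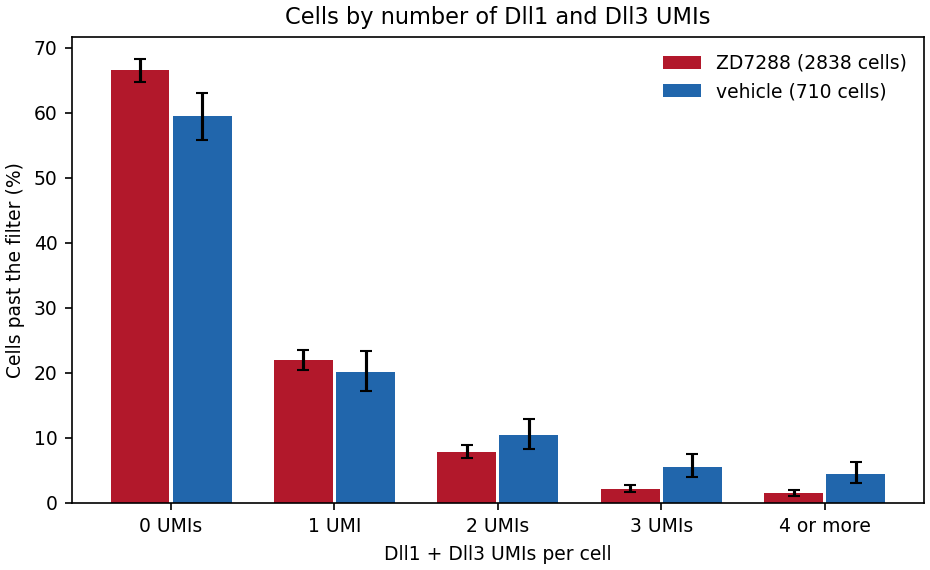
Share of cells past the filter (y axis, percent) by the number of Dll1 and Dll3 UMIs in the cell (x axis), with ZD7288 in red and vehicle in blue; bars are shares and lines are exact 95% binomial intervals. Cells with 3 and with 4 or more UMIs were 2.18% and 1.52% after ZD7288, below the 5.49% and 4.51% of vehicle.

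Most ligand cells lay at the threshold. Exactly 2 ligand UMIs were held by 222 ZD7288 cells and 74 vehicle cells, 3 UMIs by 62 and 39 cells, and 4 or more by 43 and 32 cells, with a highest count of 10 after ZD7288 and 9 in vehicle. Just outside the rule, 1 UMI was held by 623 ZD7288 cells and 143 vehicle cells. Ligand cells carried 57.3% of the ligand UMIs but 12.5% of all UMIs of the ZD7288 library, and 75.3% and 29.2% in vehicle.

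Depth differed between the classes of cells in vehicle. The median was 23461 UMIs in ZD7288 ligand cells and 23738 in ZD7288 cells without ligand UMIs, against 24444 and 16064 in vehicle. The median share of Mt- UMIs was 5.003% in ligand cells and 4.75% in cells without ligand UMIs after ZD7288, and 5.70% and 5.94% in vehicle. Since a deeper cell reaches 2 UMIs more easily, the ratios below were also computed with the cells without ligand UMIs weighted to the depth of the ligand cells.

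Over all filtered cells, both ligand genes were lower after ZD7288, Dll3 the more so. Dll1 (ENSRNOG00000059984) had 871 UMIs, or 11.9 CPM (11.1 to 12.7), after ZD7288 and 295 UMIs, or 19.0 CPM (16.9 to 21.3), in vehicle, a ratio of 0.628 (0.550 to 0.720). Dll3 (ENSRNOG00000019338) had 589 UMIs, or 8.06 CPM (7.42 to 8.74), after ZD7288 and 284 UMIs, or 18.3 CPM (16.2 to 20.5), in vehicle, a ratio of 0.441 (0.382 to 0.510). The intervals of the 2 ratios do not overlap. The makeup of the ligand cells differed in the same way. After ZD7288, 124 ligand cells (37.9%) had Dll1 alone, 64 (19.6%) had Dll3 alone and 139 (42.5%) had both genes, while in vehicle 29 (20%), 31 (21.4%) and 85 (58.6%) did.

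Each ligand gene was higher in cells that held the other. This was read from the level of each gene in cells chosen by the other alone, which the choice does not fix. In cells with at least 2 Dll3 UMIs, Dll1 stood at 27.2 CPM after ZD7288 (107 cells), against 10.96 CPM in the cells with 0 Dll3 UMIs, a ratio of 2.48 (1.94 to 3.15). In vehicle (62 cells) the same levels were 33.8 and 13.7 CPM, a ratio of 2.46 (1.804 to 3.33). Dll3 in cells with at least 2 Dll1 UMIs stood at 15.5 CPM against 7.06 CPM after ZD7288 (164 cells), a ratio of 2.20 (1.70 to 2.82), and at 27.8 CPM against 14.3 CPM in vehicle (65 cells), a ratio of 1.95 (1.43 to 2.62). With the comparison cells weighted to the same depth, these 4 ratios were 2.36, 2.66, 2.20 and 2.27.

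At the threshold of 2 ligand UMIs, ligand cells and cells without ligand UMIs differed in few genes. A gene counted as measured at 20 CPM or more in the higher class and as called at a ratio of 1.5 or more either way. In the ZD7288 library 23 of 4710 measured genes (0.488%) were higher and 21 (0.446%) lower in ligand cells. In vehicle 65 of 4667 (1.39%) were higher and 23 (0.493%) lower. The counts depend on the threshold. With at least 3 ligand UMIs, held by 105 ZD7288 and 71 vehicle cells, 72 genes were higher and 63 lower after ZD7288. In vehicle, 118 were then higher and 71 lower. Of 4394 genes measured in both libraries, 10 (0.228%) were higher in both and 3 (0.0683%) lower in both. The 10 are 43.5% of the 23 genes called higher after ZD7288 and 27.8% of the 36 called higher in vehicle among genes measured in both, and the 3 are 37.5% of 8 and 13.0% of 23. Of the 23 genes called higher in ZD7288, 21 had a ratio above 1 in vehicle. With the cells without ligand UMIs weighted to the depth of the ligand cells, 7 genes were higher in both libraries and 4 lower in both. Over these 4394 genes the log2 ratios of the libraries had a Pearson r of 0.517, given as a description across genes, which are not independent replicates.

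**Figure D2:**
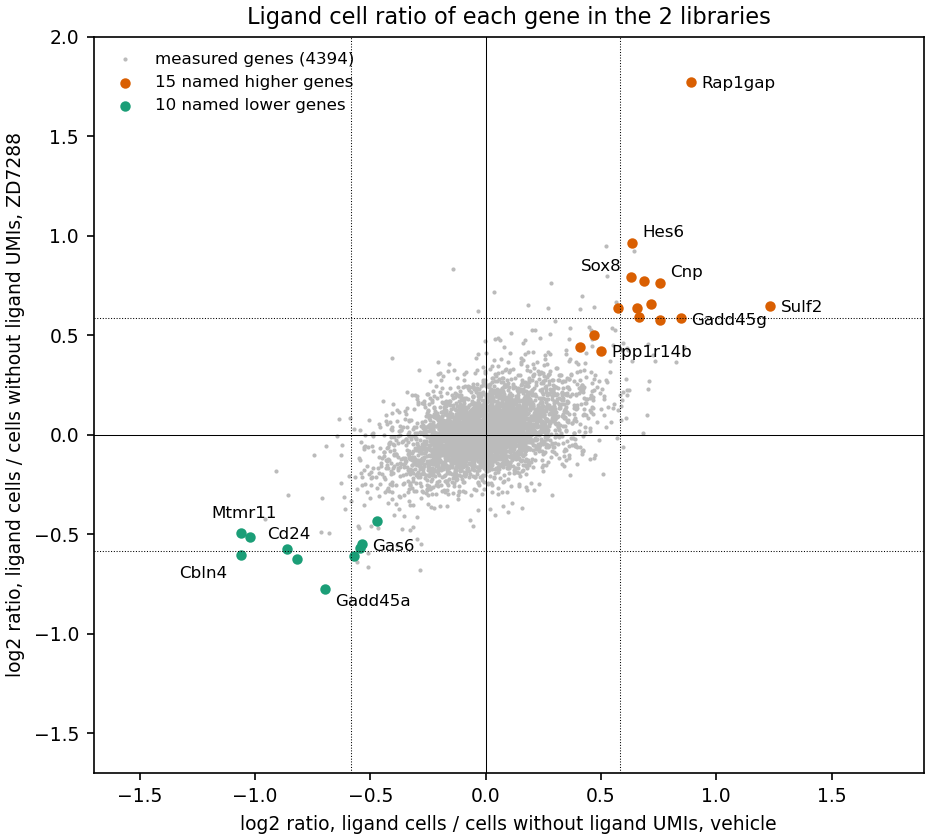
Each point is 1 of 4394 genes measured in both libraries, placed by its log2 ratio of ligand cells over cells without ligand UMIs in vehicle (x axis) and in ZD7288 (y axis); dotted lines mark the 1.5-fold rule, and orange and green points are the 15 higher and 10 lower named genes. Rap1gap stands highest after ZD7288 (log2 ratio 1.77) and Sulf2 farthest right among the named genes in vehicle (1.24).

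Hes6, the antagonist of Hes1, was among the genes higher in both libraries. It stood at 116 CPM in ligand cells and 59.7 CPM in cells without ligand UMIs after ZD7288, a ratio of 1.95 (1.82 to 2.09), and at 145 and 93.3 CPM in vehicle, a ratio of 1.55 (1.40 to 1.73). Its level followed the number of ligand UMIs. After ZD7288 it was 59.7, 78.0, 97.8, 132 and 180 CPM in cells with 0, 1, 2, 3 and 4 or more ligand UMIs, and in vehicle 93.3, 106, 123, 160 and 167 CPM. At 5000 UMIs per cell, 39.4% of ZD7288 ligand cells and 23.1% of ZD7288 cells without ligand UMIs held a Hes6 UMI, against 50.3% and 37.4% in vehicle (unthinned 85.6%, 65.2%, 89.7% and 71.6%).

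Gadd45g, a growth arrest gene on the proneural list, had ratios of 1.499 (1.34 to 1.67, just under the rule) after ZD7288 and 1.797 (1.42 to 2.28) in vehicle. Of the proneural and neurogenic list, 1 of 11 measured genes after ZD7288 and 3 of 10 in vehicle were higher and 0 lower, with median log2 ratios of 0.32 and 0.28, beside medians of 0.00 over all measured genes in each library. The astrocyte list had medians of 0.32 after ZD7288 and 0.06 in vehicle, and the Wnt and hedgehog list 0.01 and 0.52. A median of this size in a single library was therefore not particular to the proneural list. Myt1, a zinc finger factor of neural and oligodendrocyte progenitors, lay below the measurement floor and was chosen after its values were seen. It had 3.71 against 0.869 CPM after ZD7288, a ratio of 4.27 (2.63 to 6.89), and 10.6 against 4.79 CPM in vehicle, a ratio of 2.21 (1.41 to 3.48).

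Among the receptors, Notch1 passed 1.5-fold in ligand cells after ZD7288 but not in vehicle. Notch1 stood at 32.1 against 16.6 CPM after ZD7288, a ratio of 1.93 (1.68 to 2.21), and at 58.1 against 40.5 CPM in vehicle, a ratio of 1.43 (1.21 to 1.70). In cells with at most 5% Mt- UMIs its ratios were 1.81 after ZD7288 and 0.790 in vehicle, so that the vehicle direction turned. For Notch2 the ratios were 1.18 (1.01 to 1.37) and 1.09 (0.904 to 1.32). Notch3 had at most 2 UMIs in a class, and Notch4 had 4.25 against 4.58 CPM after ZD7288 and 4.18 against 5.31 CPM in vehicle.

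The other ligands were low. Dner, a Delta and Notch-like transmembrane protein, had ratios of 1.39 (1.09 to 1.76) after ZD7288 and 1.56 (1.10 to 2.21) in vehicle, and Jag1, a ligand of the Serrate class, 0.863 (0.669 to 1.10) and 1.20 (0.629 to 2.23). Dlk1, a non-canonical Delta-like protein, had ratios of 1.29 (1.04 to 1.58) and 0.858 (0.609 to 1.20). Dll4 and Jag2 had 1 UMI each in ZD7288 ligand cells and 0 in vehicle ligand cells.

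Of the genes that Notch signalling is known to switch on, Hes1 and Nrarp had ratios below 1 in both libraries, and so did Id1. The interval for Hes1 after ZD7288 holds 1. Hes1 stood at 14.51 against 15.03 CPM after ZD7288, a ratio of 0.965 (0.796 to 1.16), and at 21.1 against 29.4 CPM in vehicle, a ratio of 0.719 (0.561 to 0.917). Nrarp, a feedback inhibitor of Notch signalling, had ratios of 0.837 (0.764 to 0.916) and 0.843 (0.749 to 0.949), and of 0.815 and 1.05 with the cells without ligand UMIs weighted to the depth of the ligand cells, so that its vehicle direction turned. Id1, an inhibitor of proneural factors, had ratios of 0.900 (0.851 to 0.951) and 0.743 (0.645 to 0.853), and of 1.00 in both libraries in cells with at most 5% Mt- UMIs. Of the HES, HEY and ID list, 0 of 4 measured genes after ZD7288 and 0 of 6 in vehicle passed 1.5-fold, with median log2 ratios of -0.08 and -0.23. Hes5, a main target in the embryonic cortex, had 0 UMIs in ZD7288 ligand cells and 1 UMI in vehicle ligand cells.

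Some genes of the oligodendrocyte lineage were higher in ligand cells. Cnp, an enzyme of oligodendrocytes and their precursors, stood at 100 against 59.2 CPM after ZD7288, a ratio of 1.69 (1.57 to 1.83), and at 194 against 115 CPM in vehicle, a ratio of 1.69 (1.54 to 1.86). Sox8, a SoxE factor of glial precursors, had ratios of 1.73 (1.60 to 1.87) and 1.55 (1.38 to 1.74). Of 11 measured genes of the oligodendrocyte precursor list, 2 after ZD7288 and 3 in vehicle were higher and 0 lower, with median log2 ratios of 0.20 and 0.27. Olig1, which like Olig2 specifies the lineage, had ratios of 1.37 (1.35 to 1.40) and 1.12 (1.09 to 1.15), below the rule in both libraries. Tcf7l2, a Wnt effector of differentiating oligodendrocytes, had ratios of 1.00 (0.881 to 1.14) after ZD7288 and 1.60 (1.38 to 1.86) in vehicle. Below the floor, and chosen after their values were seen, Cspg4 (the NG2 proteoglycan of precursors) had ratios of 2.50 (1.64 to 3.76) and 2.67 (1.74 to 4.14) and C1ql1, a secreted protein of precursors, 1.94 (1.24 to 2.97) and 3.64 (2.29 to 5.93). Sox10, a defining factor of oligodendrocyte precursors, was close to 0, with 0.109 CPM in ZD7288 ligand cells and 0.220 CPM in vehicle ligand cells, and the myelin gene Mbp had the same levels.

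**Figure D3:**
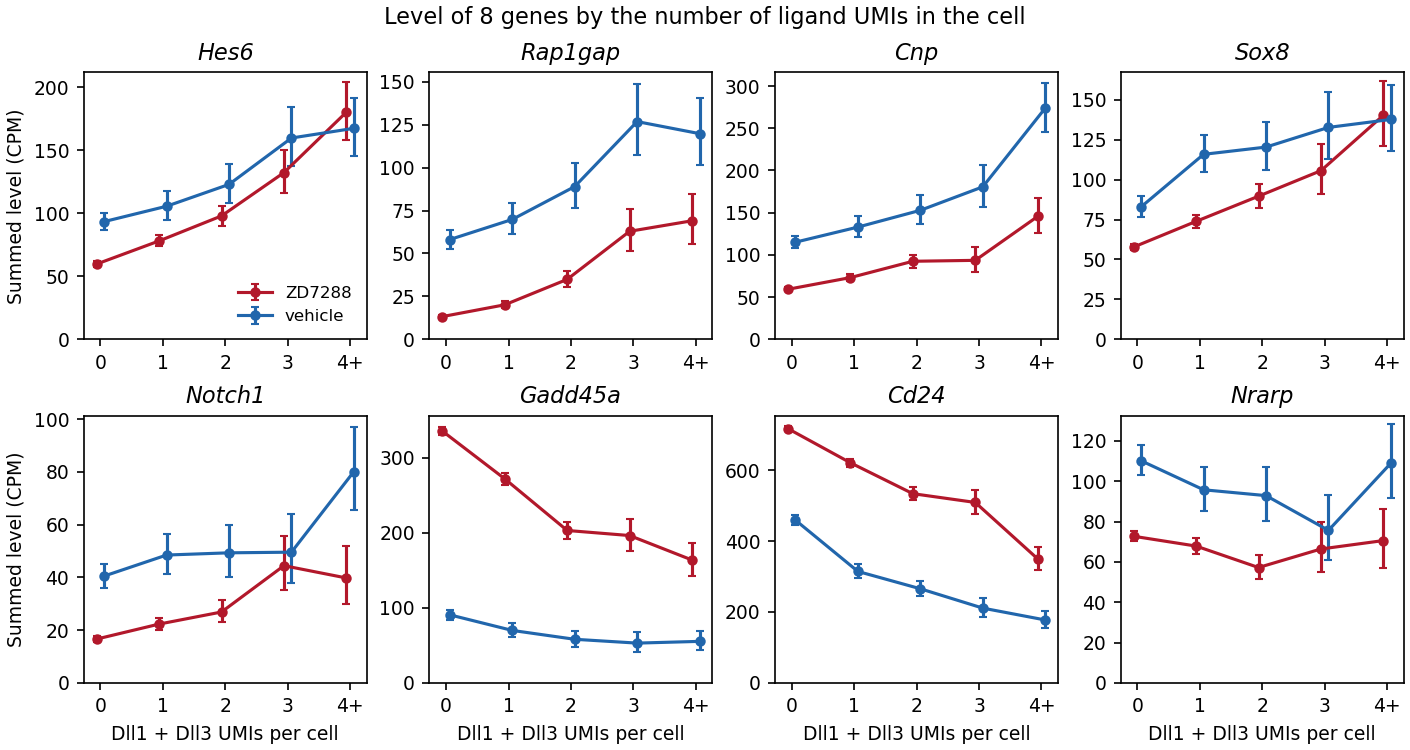
Summed level (y axis, CPM, from 0) of 8 genes by the number of Dll1 and Dll3 UMIs in the cell (x axis), with ZD7288 in red and vehicle in blue; lines on the points are exact 95% Poisson intervals. Hes6, Rap1gap, Cnp and Sox8 were higher in cells with 4 or more ligand UMIs than in cells with 0, Cd24 and Gadd45a lower, and Nrarp was within counting error between these ends.

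Rap1gap, which switches off the small GTPase Rap1, had the largest ratio after ZD7288 among the 15 higher genes. It stood at 45.2 against 13.2 CPM after ZD7288, a ratio of 3.42 (3.01 to 3.88), and at 108 against 58.1 CPM in vehicle, a ratio of 1.85 (1.63 to 2.11). By ligand UMIs it ran 13.2, 20.1, 34.9, 62.9 and 69.1 CPM after ZD7288 and 58.1, 69.8, 89.0, 127 and 120 CPM in vehicle. Within the ZD7288 ligand cells it was lowest in those with Dll1 alone (27.3 CPM, 22.2 to 33.3), against 52.3 CPM (41.7 to 64.8) in those with Dll3 alone and 58.3 CPM (51.1 to 66.3) in those with both. In vehicle ligand cells these levels were 78.1 (60.3 to 99.6), 122 (98.5 to 149) and 112 CPM (100 to 125).

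Sulf2, an extracellular heparan sulfatase, was also lowest with Dll1 alone after ZD7288, with 14.2 CPM (10.6 to 18.7) in cells with Dll1 alone, 37.8 CPM (28.9 to 48.7) with Dll3 alone and 27.8 CPM (22.9 to 33.5) with both. In vehicle it was 38.5 (26.3 to 54.3), 41.0 (28.1 to 57.9) and 37.2 CPM (30.5 to 44.9), which counting error does not separate. Its ratios of ligand cells over cells without ligand UMIs were 1.56 (1.34 to 1.82) after ZD7288 and 2.35 (1.86 to 2.99) in vehicle. With weighting to depth these ratios were 1.52 and 1.63.

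Others of the 15 higher genes are of mixed function. The glutamine transporter Slc38a3 had ratios of 1.58 (1.42 to 1.76) after ZD7288 and 1.65 (1.36 to 2.00) in vehicle (1.06 in vehicle cells with at most 5% Mt- UMIs), and the BDNF receptor Ntrk2 1.55 (1.38 to 1.75) and 1.58 (1.31 to 1.89). Nsg1, of neuronal endosomes, had ratios of 1.51 and 1.59, and Sh3bp4, an adaptor of endocytosis, 1.71 and 1.61. With weighting to depth the vehicle ratios fell below the rule for Ntrk2 (1.33), Nsg1 (1.38) and Sh3bp4 (1.44), but not for Slc38a3 (1.61). Sez6, a neuronal membrane protein, had 1.49 and 1.69 (1.04 in vehicle cells with at most 5% Mt- UMIs). Ppp1r14b, a phosphatase inhibitor, differed by less (1.34 and 1.41) but at high level, with 1227 against 916 CPM after ZD7288 and 2286 against 1617 CPM in vehicle. Tpm1 (tropomyosin, 1.42 and 1.39) and Traf4 (a signalling adaptor, 1.36 and 1.33) differed by similar factors. RGD1564664, which the rule on named genes leaves out and which is given because it is the remaining gene of the 10 higher in both, stood at 108 against 57.3 CPM after ZD7288 and 115 against 73.5 CPM in vehicle.

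Gadd45a and Cd24 headed the genes that were lower in ligand cells. Gadd45a, a DNA damage and stress gene, stood at 196 against 336 CPM after ZD7288, a ratio of 0.584 (0.556 to 0.614), and at 55.9 against 90.6 CPM in vehicle, a ratio of 0.617 (0.532 to 0.713). Cd24, a surface glycoprotein of immature neural cells, stood at 502 against 717 CPM after ZD7288, a ratio of 0.700 (0.679 to 0.722), and at 226 against 459 CPM in vehicle, a ratio of 0.493 (0.459 to 0.528). Cd24 ran 717, 621, 534, 509 and 350 CPM with rising ligand UMIs after ZD7288, and 459, 314, 265, 211 and 177 CPM in vehicle. In ZD7288 ligand cells it was 647 CPM (621 to 674) with Dll1 alone and 370 CPM (341 to 401) with Dll3 alone. Vehicle did not show this order when cells were chosen by at least 2 UMIs of a single ligand, whatever the other. The Cd24 ratios to cells without ligand UMIs were then 0.419 (Dll1) and 0.476 (Dll3) in vehicle, against 0.803 and 0.479 after ZD7288. A Cd24 UMI was held at 5000 UMIs per cell by 73.7% of ZD7288 ligand cells and 89.0% of ZD7288 cells without ligand UMIs, against 57.2% and 72.0% in vehicle (unthinned 96.3%, 98.7%, 88.3% and 89.3%).

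The other 8 lower genes had ratios of 0.649 to 0.739 after ZD7288 and 0.479 to 0.721 in vehicle. They include the secreted synaptic protein Cbln4 (0.657 and 0.480), the immediate early gene Ier5 (0.649 and 0.567), Gas6, a ligand of TAM receptor kinases (0.682 and 0.690), and S100a10, a partner of annexin A2 (0.739 and 0.721). The others were Mtus1, Mtmr11, Cmtm7 and the adaptor gene Nck1. With the cells without ligand UMIs weighted to the depth of the ligand cells, the 15 higher genes had ratios of 1.34 to 3.32 after ZD7288 and 1.27 to 2.03 in vehicle, and the 10 lower genes 0.581 to 0.738 and 0.436 to 0.769. With weighting to the S and G2/M scores the ranges were 1.32 to 3.21 and 1.30 to 2.01 for the higher genes, and 0.613 to 0.772 and 0.472 to 0.723 for the lower genes. In cells with at most 5% Mt- UMIs, which left 42 ligand cells against 90 cells without ligand UMIs in vehicle, Ier5 (1.01) and Nck1 (1.02) were no longer lower in vehicle.

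Cell cycle genes leaned slightly higher in ligand cells after ZD7288, with no measured S phase or G2/M gene past the rule. Summed levels after ZD7288 had ratios of 1.13 (1.11 to 1.14) for S phase and 1.10 (1.09 to 1.11) for G2/M. In vehicle these ratios were 1.01 (0.985 to 1.03) and 1.03 (1.01 to 1.04). After ZD7288 the median G2/M share was 0.603% of UMIs in ligand cells and 0.459% in cells without ligand UMIs. In vehicle these shares were 0.620% and 0.542%. Of the S phase list, 0 of 32 measured genes after ZD7288 and 0 of 33 in vehicle passed the rule, with median log2 ratios of 0.17 and -0.01, and of the G2/M list 0 of 41 in each library, with medians of 0.16 and 0.11. The ATF4 and amino acid response list, which holds genes that cells switch on when amino acids run short, had 0 of 32 genes higher and 1 lower in ligand cells after ZD7288 (median -0.12) and 0 of 23 in vehicle (median -0.02). Trib3, an ATF4 target that restrains AKT signalling, was that gene, at 47.1 against 71.4 CPM after ZD7288, a ratio of 0.660 (0.596 to 0.730). Of the G1 list, Cdkn2b, a CDK inhibitor, had ratios of 0.610 (0.549 to 0.677) and 0.526 (0.286 to 0.919, where vehicle levels did not reach 20 CPM), and Cdkn1a 0.933 (0.885 to 0.983) and 0.597 (0.502 to 0.707). The vehicle value for Cdkn1a rests on its summed level: the median cell had 14.95 CPM in ligand cells and 0 CPM in cells without ligand UMIs, the highest cell 468 and 2428 CPM, and 15.9% and 17.1% of cells held a UMI at 5000 UMIs per cell (unthinned 51.7% and 36.5%). In vehicle cells with at most 5% Mt- UMIs its ratio was 0.911. Of the NRF2 list, 1 of 18 measured genes was lower after ZD7288 (Hmox1, which degrades haem, 0.642, 0.590 to 0.697) and 0 of 13 in vehicle.

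**Figure D4:**
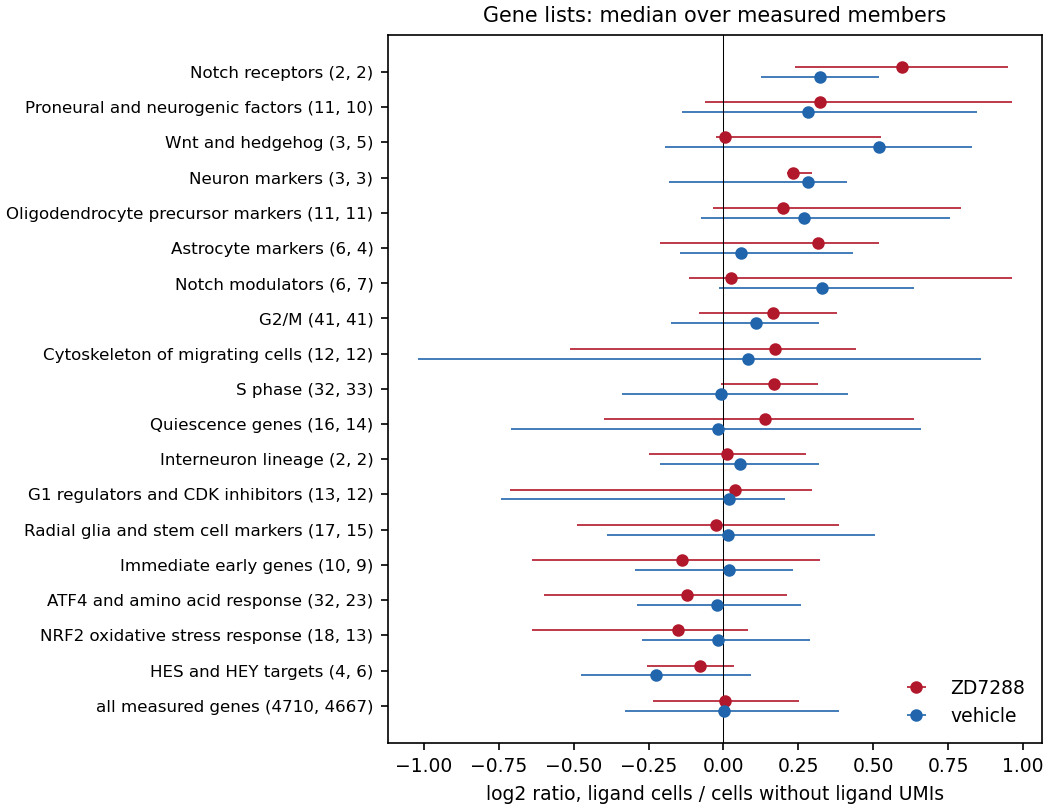
Median log2 ratio of ligand cells over cells without ligand UMIs (x axis) for each gene list with at least 2 measured members in both libraries, with ZD7288 in red above vehicle in blue; horizontal lines run over the lowest to highest member (for all measured genes, from the 5th to the 95th percentile), and numbers after the names count the measured genes in ZD7288 and in vehicle. The proneural list lay at 0.32 and 0.28 and the HES and HEY list at -0.08 and -0.23. The astrocyte list lay at 0.32 and 0.06 and the Wnt and hedgehog list at 0.01 and 0.52.

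Between the libraries, the counts of differing genes in ligand cells lay close to those in cells without ligand UMIs. Of 4877 genes measured in ligand cells, 504 (10.3%) were higher by 1.5-fold or more after ZD7288 and 281 (5.76%) lower. In cells without ligand UMIs these counts were 490 (10.2%) and 214 (4.46%) of 4795. The median log2 ratio in ligand cells was 0.10. With that median set to 0, the split was 325 higher and 393 lower, so the balance of higher and lower genes depends on the scaling. Of the ATF4 list 31 of 32 measured genes were higher in ligand cells (median log2 ratio 1.77) and 30 of 32 in cells without ligand UMIs (1.86), and of the NRF2 list 9 of 18 (0.61) and 10 of 18 (0.61).

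Of the 8 genes named as highest after ZD7288 in ligand cells, all but Ifi27l2b are on the ATF4 list. Slc7a3, a transporter of cationic amino acids, stood at 174 CPM after ZD7288 and 2.86 CPM in vehicle, a ratio of 60.9 (35.5 to 115), and Asns, which makes asparagine, at 296 and 31.5 CPM, a ratio of 9.42 (7.96 to 11.2). Cth, of cysteine synthesis, was 19.1-fold higher (12 to 32.4), the cystine transporter Slc7a11 17.2-fold (10.5 to 30.2), the gluconeogenic Pck2 12.03-fold (7.86 to 19.4) and the glutathione-degrading Chac1 12.02-fold (7.61 to 20.2). Trib3 (71.4, 24.3 to 347) and Ifi27l2b, an interferon-related gene (111, 30.6 to 922), rested on 3 and 2 UMIs in vehicle ligand cells. None of these 8 genes had a ratio above 1 of ligand cells over cells without ligand UMIs after ZD7288. For 5 of the 8 the interval lay below 1, though the share of all measured genes with such intervals is not given here. The median log2 ratio over all measured genes was 0.00. Slc7a11 lay above 1 in cells with at least 2 Dll1 UMIs, whatever their Dll3 UMIs (1.13), and Slc7a3 at most 5% Mt- UMIs (1.06).

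The genes lowest after ZD7288 were of other kinds. Cfap52, a protein of motile cilia, had 11.02 CPM in ZD7288 ligand cells and 44.7 CPM in vehicle ligand cells, a ratio of 0.247 (0.192 to 0.315), and made up nearly all of the ependymal list (11.1 and 45.3 CPM in sum). Gal3st1, the sulfotransferase that makes sulfatide, had 10.4 and 40.3 CPM (0.257, 0.199 to 0.331), and Tcf7l1, a Wnt effector, 10.6 and 35.9 CPM (0.295, 0.227 to 0.382). The others were Sdf2l1 (0.265), Cmtm5 (0.272), Serinc5 (0.289), Dlgap3 (0.309) and Aif1l (0.357). All 8 had ratios above 1 of ligand cells over cells without ligand UMIs after ZD7288, with 5 of 8 intervals above 1. All but Aif1l lay below the floor of 20 CPM in both of these ZD7288 classes. The share of all genes with intervals above 1 is not given here, so these counts have no background. The vehicle ratios of these 8 genes support nothing. The genes were chosen by a high level in vehicle ligand cells, which is also the numerator there.

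**Figure D5:**
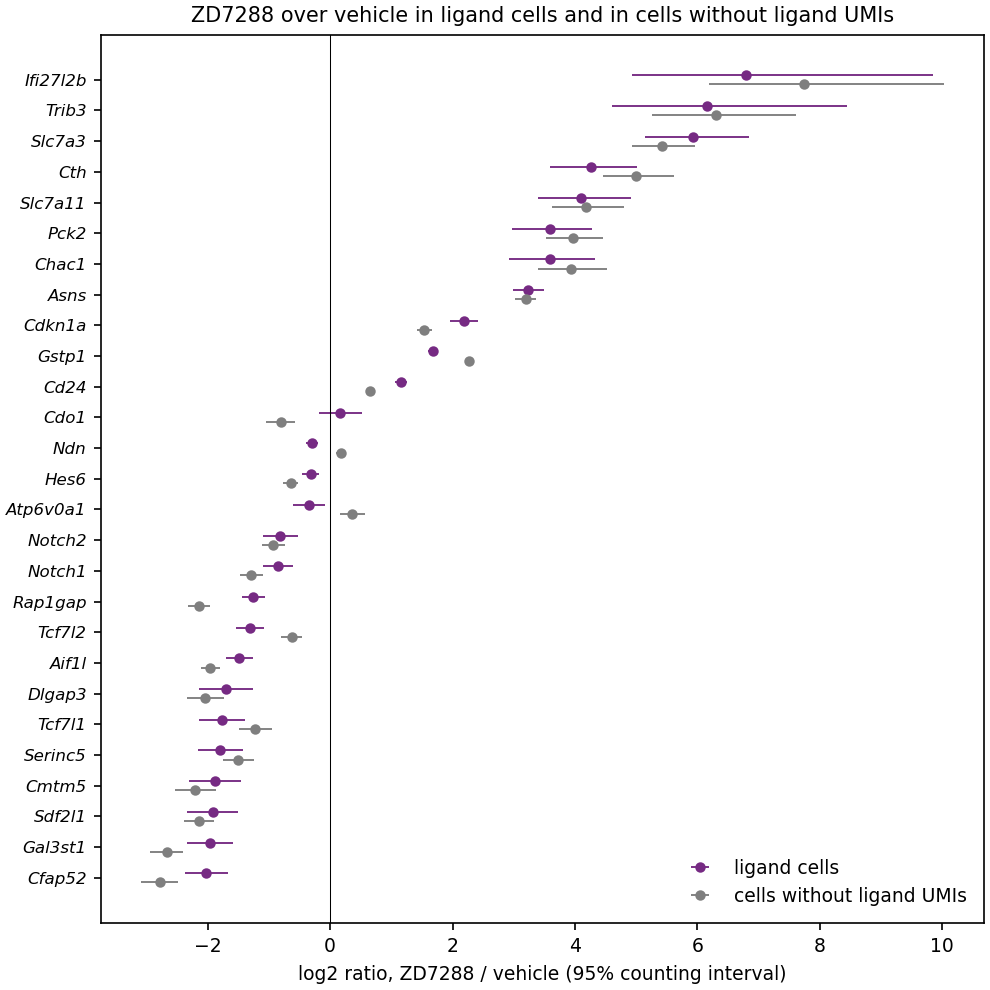
Log2 ratio of ZD7288 over vehicle (x axis) in ligand cells (purple, above) and in cells without ligand UMIs (grey, below) for the genes named between the libraries and for Notch1, Notch2 and Hes6; horizontal lines are 95% counting intervals. The pairs of points lie apart for Rap1gap (0.420 in ligand cells and 0.227 in cells without ligand UMIs, as ratios) and close together for Asns (9.42 and 9.15).

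Both measured Notch receptors and several hedgehog and Wnt genes were lower after ZD7288 in ligand cells. Notch1 had a ratio of 0.552 (0.466 to 0.654) in ligand cells (0.966 in those with at most 5% Mt- UMIs) and 0.410 in cells without ligand UMIs, and Notch2 0.569 (0.466 to 0.696) and 0.526. Of 5 measured Wnt and hedgehog genes, 3 were lower in ligand cells (the Wnt effectors Tcf7l1 and Tcf7l2 at 0.295 and 0.405 and the hedgehog receptor Ptch1 at 0.406, with a median log2 ratio of -1.30) and 4 in cells without ligand UMIs (-0.85). Hes6 had 0.802 (0.727 to 0.885) and 0.639 (0.589 to 0.695). Of 11 measured oligodendrocyte precursor genes 4 were lower in each class, with median log2 ratios of -0.36 in ligand cells and -0.43 in cells without ligand UMIs.

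A few genes differed between the libraries in their ligand cell ratio. The difference is given as the ratio in ZD7288 divided by the ratio in vehicle, with an approximate counting interval, and has no test over samples. It was 1.85 (1.54 to 2.21) for Rap1gap, 1.97 (1.48 to 2.60) for Cdo1, of cysteine breakdown, 1.42 (1.32 to 1.53) for Cd24 and 1.56 (1.31 to 1.86) for Cdkn1a. It was 0.664 (0.622 to 0.710) for Gstp1, a glutathione transferase, and 0.627 (0.516 to 0.762) for Tcf7l2. It was 0.612 (0.488 to 0.766) for the proton pump subunit Atp6v0a1 and 0.720 (0.660 to 0.784) for Ndn (necdin). Whether near-identical gene copies affected the Gstp1 count was not tested. Cdo1 stood at 25.4 against 14.2 CPM in ligand cells and cells without ligand UMIs after ZD7288 and at 22.7 against 24.98 CPM in vehicle. Its vehicle ratio, 0.908, was 1.04 with weighting to depth and 1.31 at most 5% Mt- UMIs. For Gstp1 the levels were 1170 against 1443 CPM after ZD7288 and 365 against 299 CPM in vehicle.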

How the data were processed

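Gene expression was measured by droplet single-cell RNA sequencing in 2 libraries, ZD7288 and vehicle. The deposited matrix holds raw UMI counts of 25399 genes in 4691 barcodes, made by the authors with Cell Ranger (version 3.0.2, per the file headers). No source used here gives the genome build or the rule for keeping barcodes. Barcode suffixes were matched to the numbers in the sample titles (2 for ZD7288 and 1 for vehicle).

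Counts of a class of cells were summed and scaled to CPM. Ratios carry exact Clopper-Pearson intervals, levels exact Poisson intervals and shares exact binomial intervals, all covering counting error only. Ratios of shares and ratios of ratios carry approximate log-normal intervals. With 1 library per condition, and cells not being replicates, no p-value is given. Likely doublets (87 ZD7288 and 5 vehicle cells, at a rate of 0.8% per 1000 barcodes) were marked by their likeness to simulated pairs of cells and kept in the main values. Thinning drew 5000 UMIs from each cell. For the weighted alternatives cells were placed in 5 UMI bins or 9 bins of S and G2/M score. The ratios and intervals were tried on counts drawn at random around the summed levels, with no spread between cells. That is the setting the intervals assume, so it cannot show how they hold under such spread.

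Genes were named by rule: the 15 highest and 10 lowest ligand cell ratios by the interval bound nearest to 1 in both libraries, the 8 highest and 8 lowest between libraries in ligand cells, the 4 highest and 4 lowest ratios of ratios, the Notch ligands, receptors and HES or HEY genes, and up to 4 members of each of 23 lists past the rule (otherwise the 2 with the highest CPM). Any other gene was chosen after its values were seen, and some genes the rule names are not reported here. The lists held 519 symbols, of which 501 matched. The members and lists were chosen with earlier results of these data known. Alternatives covered the ligand threshold, cells chosen by 1 ligand, cell weights, depth, cell filters, the scaling, the floor, the size rule, doublets and the comparison cells. Cells chosen by 1 ligand held at least 2 UMIs of it, whatever their UMIs of the other. They were 164 ZD7288 and 65 vehicle cells for Dll1, and 107 and 62 for Dll3. Software was Python 3.11.15, numpy 2.4.6, scipy 1.17.1, pandas 2.3.3, scikit-learn 1.9.0 and matplotlib 3.10.9.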

Additional observations from a re-analysis of the deposited data

Results flagged for a closer look

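Barcodes outside the filter (under 5000 UMIs or over 10% Mt- UMIs) are in no comparison above, and some of them held 2 or more ligand UMIs. They were 32 of 1011 such ZD7288 barcodes (3.17%, exact binomial interval 2.17% to 4.44%) and 10 of 132 such vehicle barcodes (7.58%, 3.69% to 13.5%). A count of 0 would allow shares up to 0.297% and 2.27%. Any count above 3 passes these limits, so they say only that such barcodes were present. The median barcode outside the filter had 1741 UMIs and 15.1% Mt- UMIs in ZD7288, and 1903 UMIs and 35.1% Mt- UMIs in vehicle. The part of broken cells or free RNA in these UMIs was not tested.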

How the results depend on the processing

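Over 19 alternatives, 76 of the summary values recomputed (shares, co-detection and gene counts) stayed within their limits and 49 moved. Of the ratios of named genes 1895 were within their limits, 384 moved and 3, which had passed 1.5-fold, changed side of 1. With those under 1.5-fold or below the floor counted too, 49 of the 2282 crossed 1. The share of ligand cells, ZD7288 over vehicle (0.564), was below 1 in each alternative. It was 0.345 thinned with at least 2 UMIs, 0.825 with at least 1 UMI and 0.370 with at least 3. With at least 2 Dll3 UMIs, whatever the Dll1 UMIs, it was 0.432, and at most 5% Mt- UMIs 0.376. Co-detection in ZD7288 with at least 1 UMI gave 1.55 (Dll1) and 1.57 (Dll3).

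Counts of genes are given as higher and lower in ZD7288, higher and lower in vehicle, and higher and lower in both, where the setting moved them. With at least 3 ligand UMIs they were 72, 63, 118, 71, 23 and 14. With cells chosen by Dll3 they were 96, 67, 130, 67, 31 and 13. With cells chosen by Dll1 vehicle had 102 and 65, and 7 were lower in both. A floor of 50 CPM gave 5, 13, 16, 8, 4 and 1, and a 2-fold rule 1, 0, 4, 3, 0 and 0. Against all other cells, ZD7288 had 11 lower, vehicle 37 and 15, and both 5 and 1. At most 5% Mt- UMIs gave 249 and 205 in vehicle. Equal weight of cells left 1 lower in both, UMI bins gave 35 lower in vehicle and cell cycle bins 7 lower in ZD7288. Between libraries within ligand cells, genes higher and lower after ZD7288 were 275 and 87 at 50 CPM and 139 and 69 at 2-fold, and 325 were higher with the median set to 1. The 3 ratios that changed side of 1 were Sulf2 between libraries (1.09 in cells chosen by Dll3) and, at most 5% Mt- UMIs in vehicle, Ier5 (1.01) and Serinc5 (0.697). The cause was not tested. No paired analysis was possible because each condition is 1 library. Few vehicle cells (145 ligand cells) and few ligand UMIs per cell limit these values.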
